A study of Mus musculus with 2 samples.

Results

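The cells described here are erythroid cells of the mouse fetal liver with little Ter119 and much CD71 on their surface in which α-globin mRNA had already risen above the level of most cells of the same antibody gate. They were chosen by measured values. A member had 300 to 5000 detected genes and at most 9% mitochondrial UMIs (unique molecular identifiers, each marking 1 captured mRNA molecule), at most 95 summed counts of the 5 lineage antibodies CD11b, CD41, Ly6G/6C, CD45R and CD3e, at most 24 counts of Ter119 and at least 763 counts of CD71. In addition *Hba-a1* and *Hba-a2*, the adult α-globin genes, made up at least 1% of its UMIs, and its UMIs of the embryonic β-like gene *Hbb-y* did not exceed those of adult β-globin. Of 7863 cells in all, 169 met this rule. They were 27.4% of the 616 cells of the S1 gate, which is the same rule without the α-globin limit (exact Clopper-Pearson 95% interval 23.9 to 31.1%).

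The data are 1 CITE-seq experiment, in which barcoded antibodies and mRNA were counted in the same single cells, with 1 cDNA library and 1 antibody library. The cells came from fetal livers of C57BL/6 embryos at e13.5, pooled before staining, and carried no engineered allele and received no drug. Ter119+ cells were removed with magnetic beads and an equal number was added back, so shares of cells reflect this mixture and not the liver. The cDNA library held 58606632 UMIs, with a median of 5707 per cell and a range of 2510 to 38047, and all 7863 cell barcodes were also in the antibody file.

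The members were compared with the other 447 cells of the S1 gate, all under 1% α-globin, with 1314 S2 cells (Ter119 of 25 to 88 counts, CD71 of at least 763) and with 1032 S0-medium cells (Ter119 of at most 24, CD71 of 240 up to the S1 limit). With a single library there is no replicate, and no p-value can be had from its cells. Levels are pooled CPM, the summed UMIs of a gene in a set of cells scaled to 1000000 summed UMIs of that set, and printed ratios are ratios of CPM. Their exact 95% intervals (Poisson for a level, conditional binomial for a ratio) cover counting error only, not differences between embryos or libraries. A gene is called higher or lower where the ratio of CPM + 10 reached 1.5 in either direction, among genes with at least 100 UMIs over both sets. α-globin chose the members and enters every denominator, so its own level is a description.

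Red cell formation in the fetal liver passes from Kit+ progenitors, which depend on stem cell factor and then on erythropoietin, to erythroblasts that take up iron through the transferrin receptor CD71, make haem in their mitochondria and fill with haemoglobin. The Ter119 antigen appears on the surface as these cells mature. Haem and globin chains are made together, and free excess of either harms the cell.

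The gate and the main antibody readout rest on 12-base tags that were read with each cell barcode. These 4 are shown because the first pair chose the members and the second pair, cKit and CD44, was not used by the rule. All letters are in capitals since the whole tag identifies the antibody, and the labels give them as written.
Ter119: GAGGCGATTGAT
CD71: CGAAGAAGGAGT
cKit: AAGCGCTTGGCA
CD44: GTCTAGACTTCG

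The cell type of the label was checked with *Tfrc* (the CD71 gene), *Acp5* (an acid phosphatase), *Hemgn* (an erythroid nuclear factor) and *Slc4a1* (the band 3 anion exchanger). In CPM all 4 were higher in the members than in the other S1 cells, while in UMIs per cell *Slc4a1* alone was past the fold, and *Acp5* (3.14 and 3.28 UMIs) and *Tfrc* (2.29 and 2.34) were slightly lower. *Hemgn* was at 935 CPM (880 to 993) in the members, at 391 in the other S1 cells and at 41.9 in 183 hepatocyte-marker-rich cells. After each cell was thinned to 3000 UMIs, *Hemgn* was found in 92.9% of 156 members (13 were shallower and were left out) and in 9.94% of the hepatocyte-marker-rich cells, whose median depth of 13109 UMIs was above the members' 5829. Its level in the members was thus far above that in the hepatocyte-marker-rich cells. Where the *Hemgn* UMIs of those cells came from was not tested.

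Surface cKit was the antibody that separated the members most from the rest of their gate, although it had no part in choosing them. The members had 4 counts of cKit at the lowest, 29 at the median and 198 at the highest. The other S1 cells had 13, 131 and 1060. The ratio of the medians was 0.221, and 4.73% of the members lay above the median of the other S1 cells, so the ranges overlapped but the bodies of the distributions did not (quartiles 17 to 46 against 75.5 to 240).

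CD44, an adhesion molecule that declines as erythroblasts mature, was also lower, with 28, 130 and 389 counts at the lowest, median and highest member against 77, 235 and 746. The sum of all 10 antibodies was at a median of 1641 counts in the members and 1594 in the other S1 cells, and cKit per 1000 antibody counts gave a ratio of 0.213. Most of that sum was CD71 (medians 1378 and 1079), for which the gate set a lower limit, and the sum of the 5 lineage antibodies was 32 against 38. The control IgG had a median of 0 in both sets.

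Fewer UMIs were counted per member than per other S1 cell. The UMI total is the denominator of the α-globin share that chose the members, and capture per cell was not measured. The members had 2575 UMIs at the lowest, 5829 at the median and 17525 at the highest, against 2658, 11328 and 29217 in the other S1 cells. Without globin UMIs the medians were 5271 and 11140, which does not remove the tie to the rule. The number of genes per cell at equal depth of 3000 UMIs differed less, 1257.5 against 1395. A share of the transcripts and a number of captured molecules per cell are different quantities. Counts of genes in UMIs per cell are therefore given beside those in CPM.

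**Figure D1:**
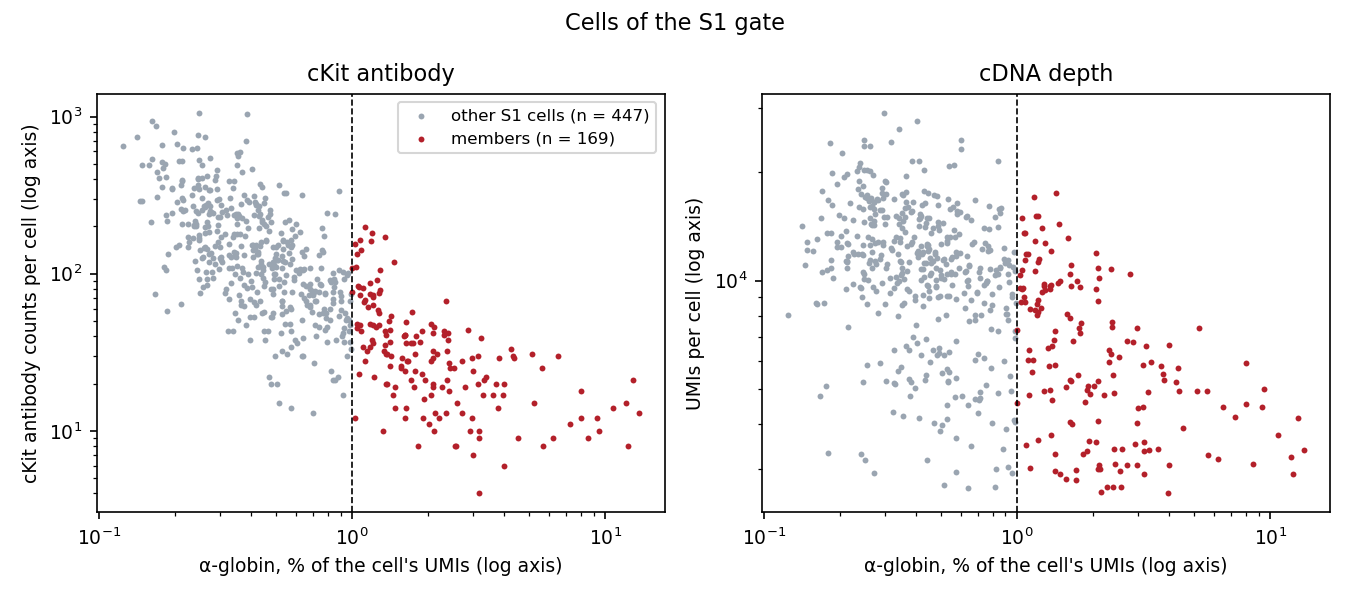
Each point is 1 cell of the S1 gate. The x axis gives α-globin as a percent of the cell's UMIs on a log axis, with the 1% limit dashed, and the y axes give cKit antibody counts (left) and UMIs per cell (right), also on log axes. The 169 members (red) lie mostly under 100 cKit counts, and the median of the 447 other cells (grey) is 131.

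α-globin, by which the members were picked, made up 1.77% of UMIs at the median of the members and 13.6% in the highest, with quartiles of 1.28 and 2.86%. The other S1 cells had a median of 0.418%, the S0-medium cells 0.258% and the hepatocyte-marker-rich cells 0.193%. At or above 1% were 98 of 1032 S0-medium cells (9.50%), 90.3% of the S2 cells, 7 of 183 hepatocyte-marker-rich cells (3.83%, 1.55 to 7.72%) and 22 of the 200 cells with the most CD11b antibody (11.0%, 7.02 to 16.2%), a myeloid integrin.

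Adult β-globin, which the rule used only against *Hbb-y*, was higher to the same degree. *Hbb-bs* and *Hbb-bt* together made up 1.31% of UMIs in the lowest member, 4.25% at the median and 43.3% in the highest, against 0.347, 0.983 and 3.23% in the other S1 cells. In the pooled sums β-globin was 5.03 times higher in the members (57389 against 11408 CPM), and 2.93 times in UMIs per cell. The ratio of β to α UMIs was 2.65 in both sets and 2.82 in S2, so both chains were counted in nearly equal proportion below and above the limit. The same ratio was 2.85 in the hepatocyte-marker-rich cells. The median α-globin share of those cells was 0.193%, and that of the other S1 cells 0.418%. How much of the proportion below the limit came from free RNA was not tested. *Hba-a1* took 63.0% of the α UMIs in the members (62.4 to 63.6%) and 62.7% in the other S1 cells, a split that near-identical copies leave uncertain.

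The minor globins differed among themselves. *Hbq1b*, a θ-globin gene of the α cluster, was at 99.1 CPM (81.7 to 119) in the members and 12.7 in the other S1 cells, a ratio of 7.78 (5.69 to 10.7). *Hbb-bh1*, an embryonic β-like gene, was at 132 against 18.9 CPM, but 1 member held 30.5% of its 151 UMIs. *Hbb-y* was at 188 and 135 CPM and was not past the fold, and it was at 127 CPM in the hepatocyte-marker-rich cells. *Hba-x*, the embryonic α-like gene, had 32 UMIs in the members, of which 31.2% were in 1 cell, so its level says little.

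Over all genes, 180 of 5454 tested were higher in the members than in the other S1 cells (3.3%) and 853 were lower (15.6%), with a median log2 ratio of −0.20. *Alas2*, the erythroid enzyme that starts haem synthesis, was at 303 CPM (272 to 336) against 45.0 (39.4 to 51.2), a ratio of 6.73 (5.68 to 7.98). *Slc4a1* was at 360 against 70.3 CPM (ratio 5.12, 4.43 to 5.91) and *Slc25a37*, the mitochondrial iron importer mitoferrin-1, at 663 against 187 CPM (3.55, 3.22 to 3.91).

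Other leading genes were *Btg2*, an antiproliferative gene (229 against 61.0 CPM), *Ube2l6*, a ubiquitin-conjugating enzyme (268 against 79.4), the cell cycle phosphatase *Cdc25b* (116 against 32.1), the Duffy antigen gene *Ackr1* (63.2 against 14.5), the CDK inhibitor *Cdkn2d* (91.2 against 24.1) and the complement regulator *Cd59a* (84.2 against 22.8). No single member held over 5.77% of the UMIs of any of these genes. *Alas2* lies at chrX:150547417-150570622, *Slc4a1* at chr11:102348820-102365281 and *Slc25a37* at chr14:69241848-69285544 on GRCm38.

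In UMIs per cell the shallower members lose the gain that a lower total gives. The same comparison then gave 24 genes higher and 4108 lower, against 180 and 853 in CPM. A gene list is therefore to be read against 4108 of 5454 genes lower on that scale. In CPM it is to be read against 3.3% of tested genes higher and 15.6% lower. *Alas2* remained higher on that scale, with 2.04 UMIs per member and 0.521 per other S1 cell, as did *Slc4a1* (2.43 and 0.814) and *Slc25a37* (4.47 and 2.17). These 3 genes had more UMIs per cell as well as a larger share.

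Haem synthesis was higher in CPM. The 7 enzymes examined all passed the fold against the other S1 cells, with a median log2 ratio of 0.90, beside −0.20 over all genes, though in UMIs per cell only *Alas2* did and the median was 0.14. The last step, *Fech* (ferrochelatase, which inserts iron), was at 1016 against 520 CPM, and *Ppox*, the step before, at 122 against 51.9 CPM. The middle enzymes *Alad*, *Uros* and *Cpox* had ratios of 1.60 to 1.64. The step catalysed by *Alas2* thus stood apart from the other enzymes of its pathway.

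Of 9 genes for mitochondrial iron and haem precursor transport, 4 were higher and none lower in CPM (median log2 ratio 0.58). Among all tested genes 3.3% were higher and 15.6% lower in CPM. In UMIs per cell 1 was higher and 1 lower, where 4108 of all 5454 genes were lower. Those higher in CPM were *Slc25a37*, *Slc25a39*, *Abcb10*, a mitochondrial transporter that associates with mitoferrin-1 (275 against 120 CPM), and *Fam210b* (359 against 138). *Tmem14c*, which carries protoporphyrinogen, was at 2792 against 1914 CPM and stayed under the fold. Iron uptake and storage split: *Tfrc* (340 against 202 CPM) and the ferritin chains *Fth1* and *Ftl1* (8335 against 5501 and 8209 against 5223) were higher, and *Steap3*, *Slc11a2*, *Ireb2* and *Snx3* were not past the fold. *Tfrc* per cell was 2.29 and 2.34 UMIs, so its higher CPM went with no more UMIs per cell. The CD71 protein, which the rule used, cannot be set against it.

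Red cell membrane genes were higher in part. In CPM 3 of the 10 membrane proteins examined (*Slc4a1*, *Gypc* and *Kel*) and 5 of 10 skeleton genes (*Sptb*, *Epb42*, *Dmtn*, *Tmod1* and *Mpp1*) passed the fold and none was lower, with median log2 ratios of 0.49 and 0.49. Over all tested genes 3.3% were higher and 15.6% lower in CPM. In UMIs per cell 1 and 0 were higher and 2 and 1 lower, beside 4108 of all 5454 genes lower. *Epb42*, which ties band 3 to the skeleton, was at 184 against 74.5 CPM, and *Tmod1*, which caps actin filaments, at 104 against 41.1. *Ank1*, the ankyrin of the same complex, was at 80.7 and 73.2 CPM, and *Add2* at 115 and 108. Members of 1 protein complex thus differed in their ratio.

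Most erythroid transcription factors were not past the fold. *Gata1* was at 210 CPM (184 to 238) in the members and 202 (190 to 214) in the other S1 cells, *Klf1* at 766 against 602, *Tal1* at 164 against 137 and *Lmo2* at 449 against 425, all under the fold. Of 14 factors, 5 were higher in CPM: *Nfe2*, *Sox6*, *Foxo3*, *Hemgn* and *E2f2* (63.2 against 20.5 CPM, ratio 3.09, 2.25 to 4.20). The CPM shares over all tested genes were 3.3% higher and 15.6% lower. In UMIs per cell 1 factor was higher and 6 lower, beside 4108 of all 5454 genes lower. *Ldb1*, which bridges GATA1 complexes, was lower, at 38.6 against 67.4 CPM. *Bcl11a*, a repressor of embryonic and fetal globin genes, was at 188 and 236 CPM.

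Several progenitor genes were at or near 0, and others were not. *Kit* had 1 UMI over the 169 members (0.877 CPM, 0.0222 to 4.89) and 60 over the other S1 cells (11.6 CPM, 8.84 to 14.9), and the ratio from so few UMIs was 0.0757 with an interval of 0.00189 to 0.438. *Gata2* and *Spi1* had 0 UMIs in the members, which allows up to 2.63 CPM, and 5 and 36 in the other S1 cells. *Myb* (8.77 against 30.5 CPM) and *Myc* (37.7 against 73.6) were the 2 of 4 testable genes of the list that were lower in CPM, and all 4 were lower in UMIs per cell, where 4108 of all 5454 genes were. *Kit* was too sparse to be called, and among cells of 4000 to 8000 UMIs it had 0 and 3 UMIs.

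The erythropoietin receptor did not follow. *Epor* was at 146 CPM (124 to 170) in the members and 164 (153 to 175) in the other S1 cells. Among its targets *Pim1*, a survival kinase, was at 305 against 106 CPM (ratio 2.87, 2.50 to 3.29) and *Bcl2l1*, the gene of BCL-XL, at 28.9 against 14.7, while *Podxl* was lower (7.02 against 32.4). *Socs2*, a feedback inhibitor, was at 28.1 and 23.6 CPM and *Jak2*, the kinase bound to the receptor, at 28.1 and 27.4. Of the 7 testable genes of this list 2 were higher and 1 lower in CPM, beside 3.3% and 15.6% of all tested genes. In UMIs per cell 1 was higher and 3 were lower, beside 4108 of all 5454 genes lower.

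Regulators of the cell cycle differed in both directions. *Ccnd3*, the D cyclin of terminal erythroid divisions, was at 825 against 356 CPM (ratio 2.32, 2.14 to 2.51), and *Ccnd2* was at 48.2 against 98.9 (0.488, 0.363 to 0.645). The kinases *Cdk6* (18.4 against 76.1 CPM) and *Cdk4* (384 against 683) were lower, and the inhibitors *Cdkn2c* (89.5 against 31.9) and *Cdkn2d* were higher. In UMIs per cell the lower genes remained past the fold, and of those higher only *Cdkn2d* did. Replication and mitosis genes were not lower in CPM: 3 of 23 S phase genes and 2 of 20 G2 and mitosis genes were higher and none lower. Of all tested genes 3.3% were higher and 15.6% lower in CPM. In UMIs per cell none was higher and 6 of each list were lower, beside 4108 of all 5454 genes. *Mcm2* was at 271 and 222 CPM, *Pcna* at 316 and 240 and *Top2a* at 436 and 327.

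Ribosome biogenesis genes lay on the lower side. Of 14 testable genes 9 were lower and none higher in CPM (median log2 ratio −0.68), beside 15.6% of all genes lower. All 14 were lower in UMIs per cell, as were 4108 of all 5454 genes. *Npm1*, the nucleolar chaperone, was at 2210 CPM (2124 to 2298) against 4449 (4392 to 4507), and *Ncl*, nucleolin, at 1087 against 1711. The single gene *Npm3* was at 102 against 369 CPM and *Srm*, spermidine synthase, at 190 against 546, both among the 10 leading genes on the lower side. The 81 testable cytosolic ribosomal protein genes had none past the fold in CPM and a median log2 ratio of −0.06, and in UMIs per cell 79 were lower with a median of −0.82, which is also the median of all genes on that scale.

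The other leading lower genes were *Prelid2* (9.65 against 67.2 CPM), *Tagln2* (29.8 against 127), *Abhd14a* (4.39 against 38.2), *Cdk6*, the citrate carrier *Slc25a1* (5.26 against 35.1), *Fam195a* (49.1 against 158), *Rangrf* (67.5 against 210) and *Ppif*, cyclophilin D (26.3 against 92.7). Genes of later erythroblasts were partly on: *Trim10* (481 against 177 CPM), *Ube2l6* and the mitophagy receptor *Bnip3l* (565 against 359) were higher among 5 testable genes in CPM, and 2 were higher and 2 lower in UMIs per cell. The antioxidant enzymes *Prdx2* (3616 against 2282 CPM) and *Gpx1* (3417 against 2064) were higher in CPM, and *Sod1*, *Sod2*, *Cat* and *Gclm* were under the fold. In UMIs per cell none of the 6 was higher and 2 were lower. For both lists, 4108 of all 5454 genes were lower on that scale, and 3.3% were higher and 15.6% lower in CPM.

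Of 5 genes near the α-globin cluster, 2 had enough UMIs, and neither passed the fold in CPM, though 1 did with non-globin UMIs as the denominator. *Mpg* was at 61.4 CPM (47.9 to 77.6) against 42.9, *Snrnp25* at 161 against 111, and *Nprl3*, whose introns hold the α-globin enhancers, at 13.2 (7.36 to 21.7) and 12.9 from 15 UMIs in the members. *Rhbdf1* and *Il9r* had 0 UMIs in the members. Of the other loci that the study examined, *Slc25a37*, *Btg2* and *Cpeb4* (ratio 2.21, 1.58 to 3.06) were higher in CPM, and *Tal1* and *Cd47* (497 against 416) were under the fold. In UMIs per cell only *Slc25a37* and *Btg2* stayed past it, and *Cpeb4* was at 0.337 and 0.262. *Cd47* (3.35 and 4.82 UMIs) and *Tal1* (1.11 and 1.58) had fewer per member, under the fold.

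**Figure D2:**
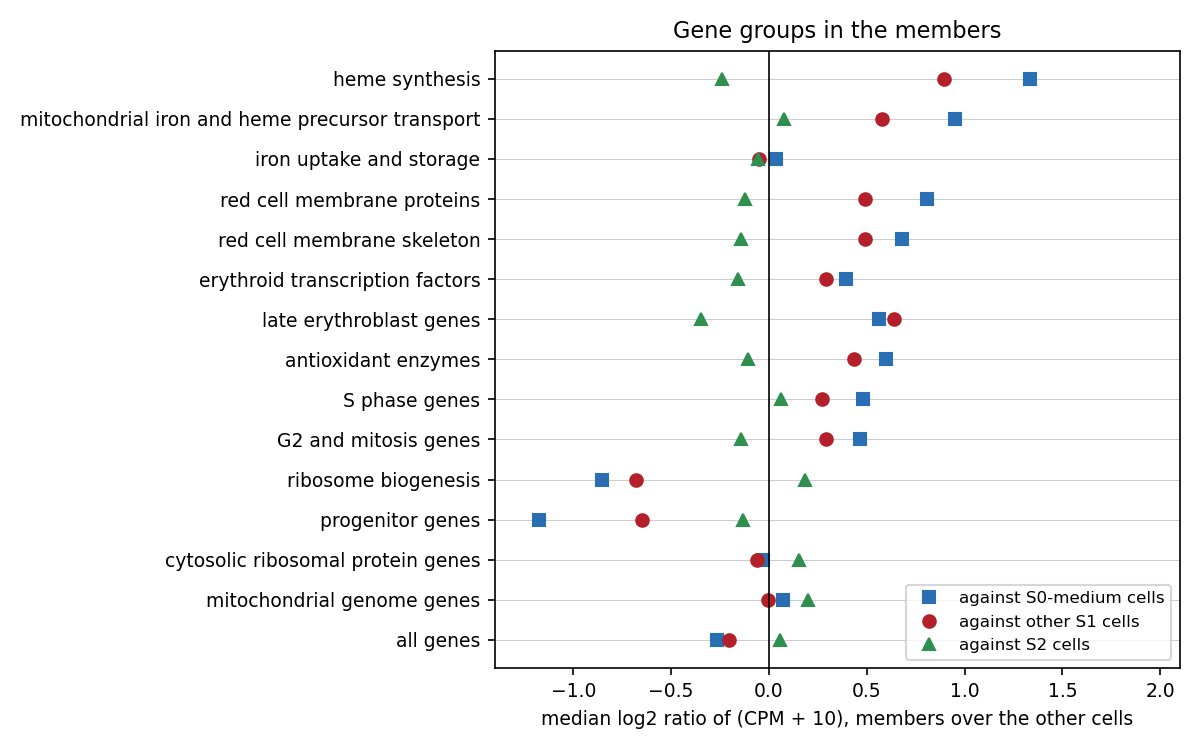
Each symbol is the median, over the testable genes of a group named on the y axis, of the log2 ratio of CPM + 10 between the members and another set of cells (x axis). Haem synthesis lies at 0.90 against the other S1 cells (red circles), at 1.34 against S0-medium (blue squares) and at −0.24 against S2 (green triangles), and the medians over all genes are −0.20, −0.26 and 0.06.

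Within the S1 gate the profile followed the α-globin share on both sides of the 1% limit. Cells were divided at 0.25, 0.5, 1, 1.5 and 3%, which gave 77, 211, 159, 65, 66 and 38 cells. The median of cKit counts fell by steps from 296 through 148, 76, 48 and 25.5 to 16, and the median depth from 12555 UMIs to 4468.5. Pooled *Alas2* was at 19.4, 38.6, 72.5, 167, 241 and 903 CPM, and *Slc4a1* at 24.3, 47.5, 139, 260, 372 and 668. These values changed in the classes below the limit as well as above it.

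Not every gene followed in a straight line. *Cdkn2d* was at 22.3 to 27.0 CPM in the 4 lowest classes and at 92.5 (64.8 to 128) and 317 (238 to 413) in the 2 highest, so its higher level lay in the members past 1.5%. *Acp5* was at 123 CPM in the lowest class, at 503 (435 to 579) from 1.5 to 3% and at 305 (228 to 400) from 3%, and the intervals of 1 to 1.5% (431 to 546) and 1.5 to 3% overlapped. *Epor* stayed between 131 and 173 CPM and *Gata1* between 170 and 235. *Cd24a*, the heat-stable antigen gene, was at 881 in the lowest class and 4204 in the highest.

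**Figure D3:**
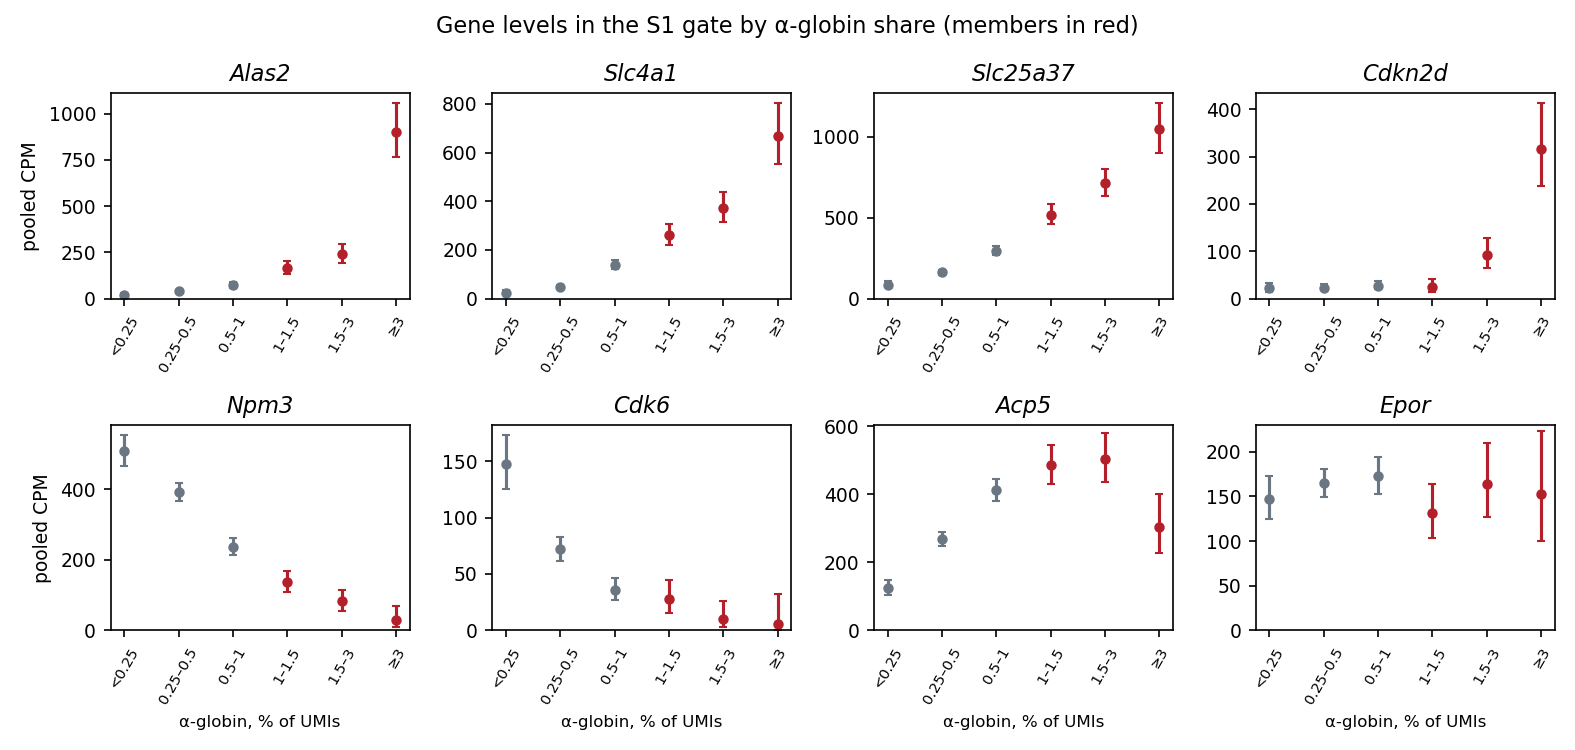
Pooled CPM (y axes, from 0) of 8 genes in cells of the S1 gate divided by α-globin share (x axes, percent of UMIs), with exact 95% Poisson intervals as bars and members in red. *Alas2*, *Slc4a1* and *Slc25a37* are higher and *Npm3* and *Cdk6* lower in each further class, *Cdkn2d* is higher from 1.5%, *Acp5* is at 305 CPM in the last class, and *Epor* stays between 131 and 173 CPM.

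Among the 169 members alone, α-globin share went with β-globin share (Spearman's rho 0.867) and against cKit (−0.679), CD44 (−0.630) and depth (−0.537), while Ter119 (−0.163) and CD71 (−0.185), whose range the rule limited, hardly varied with it. These are correlations over cells of 1 library that share its depth and chemistry, and they carry no test. Depth is also the denominator of both globin shares, so the values for depth and β-globin are not independent of it. Members with Ter119 of 12 or fewer were few, 24 of 169, and had less cKit (median 16.5 against 31), fewer UMIs (4647 against 6040) and more α-globin (2.34 against 1.71%) than the 145 with Ter119 of 13 to 24.

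Cells just outside and just inside the limits were compared once, as a description. From 0.8% to the α-globin limit 44 cells of the gate had *Alas2* at 82.4 CPM (56.7 to 116) and cKit at a median of 59.5, and the 38 members under 1.25% had *Alas2* at 166 (126 to 214) and cKit at 67. At the Ter119 limit, with α-globin at 1% or more, the 64 members with 20 to 24 counts had *Slc4a1* at 348 CPM (296 to 407), and the 75 cells outside with 25 to 29 counts had 377 (327 to 433). At the CD71 limit 15 members within 100 counts above it had *Slc25a37* at 801 CPM (617 to 1023) and 18 cells within 100 counts below it had 840 (655 to 1061), while *Npm3* was at 225 (133 to 356) above the limit and 72.0 (26.4 to 157) below it, and *Alas2* at 300.3 (192 to 447) and 432 (302 to 598).

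Because depth and α-globin share went together, the comparison was repeated, after the values had been seen, with cells of 4000 to 8000 UMIs, 69 members (median 5492 UMIs) and 74 other S1 cells (5570.5). *Alas2* had 164 and 24 UMIs, a ratio of 7.38 (4.79 to 11.9), *Slc4a1* had a ratio of 4.16 (3.02 to 5.85), *Npm3* of 0.327 (0.210 to 0.497) and *Npm1* of 0.476 (0.434 to 0.523). The cKit median was 28 against 73.5. *Pim1* came down to 1.56 (1.20 to 2.03) and *Acp5* to 1.16 (0.930 to 1.46). In this limited set 108 of 1277 genes were higher and 159 lower, so lower genes were a smaller part of the calls than at all depths, with far fewer genes testable.

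The members were also set against S2 cells, which carry more Ter119. Against S2, 22 of 6017 genes were higher (0.366%) and 54 lower (0.897%), with a median log2 ratio of 0.06. These counts depended on the setting. They were 121 and 90 for the mean over cells of CPM, and 103 and 89 of 3827 for cells thinned to 3000 UMIs. Cells of 4000 to 8000 UMIs gave 207 and 123 of 3569, so that more genes were higher than lower in those settings. Median depth (5829 and 6056 UMIs), cKit (29 and 23) and CD44 (130 and 122) were close. β-globin remained lower at 57389 against 94594 CPM, and *Alas2* was at 303 against 545 (ratio 0.555, 0.497 to 0.620). *Cdkn2d* was also lower, at 91.2 against 144 CPM, but turned higher with an α-globin limit of 2% (log2 ratio 0.44) or a Ter119 limit of 12 counts (0.37). Apart from *Alas2*, none of the haem, iron, membrane, skeleton, transcription factor, S phase, mitosis or ribosome biogenesis genes tested passed the fold in CPM.

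The largest ratio of CPM + 10 against S2 among genes other than globins was that of *Hist1h2bc*, a histone H2B gene whose mRNA can be polyadenylated, at 32.5 CPM (22.9 to 44.7) in the members and 115 in S2 (ratio 0.282, 0.197 to 0.391), and at 302 CPM in the hepatocyte-marker-rich cells. *Hist1h1c*, a linker histone gene, was at 44.7 against 87.0 CPM, *Fn3k*, fructosamine 3-kinase, at 22.8 against 48.8, and *Ypel3* at 38.6 against 76.3. The other leading lower genes, *Sowaha*, *Gm867*, *Fam214b*, *Slfn14* and *Rnf212*, had 2 to 8 UMIs in the members. On the higher side *Rpgrip1* led (132 against 70.7 CPM, ratio 1.87, 1.56 to 2.24), followed by *Metap1*, *Thg1l*, *Ahcyl2*, *Pus7*, *Zfp950*, *Ercc5*, *Fancf*, *Mto1* and *Ddx55*, each at 63.2 CPM or less. A single member held 14.3% of the *Pus7* UMIs and 11.4% of those of *Ddx55*. In simulated counts, which held counting error alone, 33 of 5827 unchanged genes (0.566%) passed the fold against S2, in either direction. The shares called here were 0.366% higher and 0.897% lower. Without variation between cells, the simulation cannot tell which of the called genes differ.

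S2 cells also differed among themselves. The S2 cells under 1% α-globin had a median of 91 cKit counts and 11857 UMIs, with *Alas2* at 80.8 CPM and *Npm1* at 3872. Those at or above 1% had 21 cKit counts and 5687 UMIs, with *Alas2* at 637 CPM and *Npm1* at 1526. Thus in both gates cells under the limit had high cKit, greater depth and more *Npm1*, and cells above it had the reverse.

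The members and S2 cells were also compared at equal α-globin share, a comparison added after the values had been seen. From 1 to 1.5% (65 members and 138 S2 cells) *Alas2* was at 167 and 177 CPM (ratio 0.944, 0.740 to 1.20), *Slc4a1* at 260 and 256 (1.02, 0.837 to 1.23) and *Npm1* at 2882 and 2919 (0.988, 0.933 to 1.05), and cKit was at 48 and 55 counts. From 3% (38 members and 708 S2 cells, whose median share of 6.08% was above the members' 4.36%) *Slc25a37* was at 1044 and 1416 CPM (0.737, 0.631 to 0.856). *Alas2* was lower in the members at 1.5 to 3% (0.733, 0.586 to 0.906) and from 3% (0.829, 0.701 to 0.974). *Cdkn2d* had ratios of 0.547 (0.283 to 0.986), 1.16 (0.792 to 1.65) and 1.09 (0.815 to 1.44) in the 3 classes. *Hist1h2bc* was at 58.6 against 242 CPM from 3% (0.243, 0.116 to 0.448) and not apart in the lower classes, and *Hbb-bh1* at 1.5 to 3% was at 61.6 against 182 (0.339, 0.215 to 0.509). *Pim1* was higher in the members from 1.5 to 3%, at 349 against 227 CPM (1.54, 1.27 to 1.85), and *Npm1* from 3%, at 768 against 615 (1.25, 1.04 to 1.49).

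**Figure D4:**
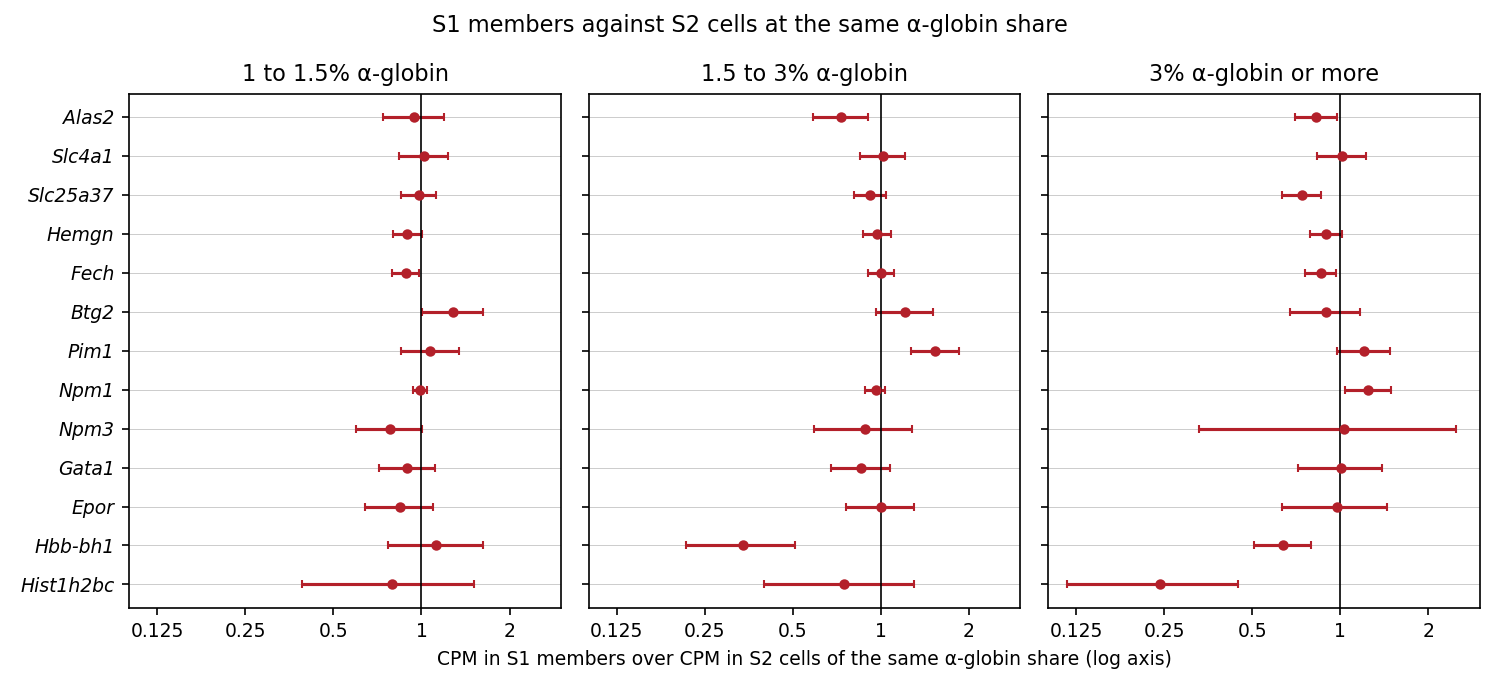
Ratio of pooled CPM in S1 members to S2 cells (x axes, log) for 13 genes in 3 classes of α-globin share, with exact conditional 95% intervals as bars. *Slc4a1* lies at 1.02, 1.02 and 1.01, *Hist1h2bc* at 0.243 in the class of 3% or more, and *Hbb-bh1* at 0.339 in the middle class.

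Against the S0-medium cells, the gate with less CD71, which is a comparison of the same members with another set, 336 of 7003 genes were higher (4.8%) and 1701 lower (24.3%), with a median log2 ratio of −0.26. The pooled S0-medium level includes 98 of 1032 cells at or above 1% α-globin, the highest at 19.4%, against a median of 0.258%. *Slc4a1* was 11.4 times higher in the members (360 against 31.5 CPM, 9.85 to 13.2), *Apol8* 8.71 times (116 against 13.3), and *Trim10* and *Hemgn* 4.87 and 4.21 times. *Prelid2* (112 CPM in S0-medium), *Cdk6* (147) and *Npm3* (544) led the lower side with *Rab4a*, *Gm15915* and *Ifngr1*. All 7 haem enzymes examined were higher in CPM, 4 of them also in UMIs per cell, and 13 of 16 ribosome biogenesis genes were lower.

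Transcripts of erythroid genes were also counted in sets of cells chosen by markers of other types, and their source there was not tested. After thinning to 3000 UMIs *Alas2* was found in 54.5% of the members (46.3 to 62.5%), in 12.5% of the other S1 cells and in 68.6% of S2, but also in 9.39% of the hepatocyte-marker-rich cells and in 15.7% of the cells with the most CD11b (median depth 6657 UMIs, 22 of them at or above 1% α-globin). The share in the other S1 cells lay between these values, and their pooled *Alas2* level varied with α-globin share as given above. Unthinned, the shares were 74.6% of members and 36.0% of other S1 cells. *Npm3* was found in 19.9% of the members, 66.4% of the other S1 cells and 39.2% of the hepatocyte-marker-rich cells. *Kit*, at 0.641% of members and 3.63% of other S1 cells, was near the 1.66% of the hepatocyte-marker-rich cells.

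Hepatocyte markers were lower in the members, 6 of 8 testable past the fold in CPM, beside 15.6% of all tested genes. Their summed level was 408 against 845 CPM, and 1 of the other S1 cells had 7.27% of its UMIs in them. *Alb*, albumin, was at 77.2 and 179 CPM, and its part in the other differences was not tested. Mast cell, basophil and lymphoid markers had 0 UMIs in the members, and the macrophage markers 9. The myeloid list had 92 UMIs and the megakaryocyte list 46, with *Gp1bb* and *Gp1ba* at 0, and 19 of the 46 were *Pf4*. Mitochondrial UMIs were at a median of 5.11% in the members and 5.005% in the other S1 cells. Scrublet called 128 of all 7863 cells doublets (1.63%), 0 of the members and 5 of the other S1 cells, and calls were kept.

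Upstream sequence of genes that were higher in the members was read from RefSeq on GRCm38.p6, as 250 bases before each start, for 138 of the 174 non-globin genes past the fold. The GATA motif (AGATAA or TGATAA, both strands) was in 11.6% of them, in 8.70% of all tested genes and in 17.0% of all promoters of the table. CCACACCC, a Krüppel-like factor motif, was in 4.35, 3.39 and 3.19%, and the Sp1 motif CCGCCCC in 45.7, 39.9 and 21.2%. Before the lower genes the shares of the 3 motifs were 5.79, 3.41 and 42.3%. These are counts of letters and carry no test. The last 150 bases before a start are shown for *Alas2*, the gene with the largest ratio, and for the cell type markers *Hemgn* and *Acp5*. Matches to any of the 3 motifs are in capitals, and a match is not a shown binding site. For *Acp5* the start with 4 matches is shown, and its other starts had 1 match each, to the Sp1 motif. *Tfrc* had 0 matches before its starts, and for *Slc4a1* no upstream sequence was available.
Alas2 (chrX:150547267-150547416, plus strand): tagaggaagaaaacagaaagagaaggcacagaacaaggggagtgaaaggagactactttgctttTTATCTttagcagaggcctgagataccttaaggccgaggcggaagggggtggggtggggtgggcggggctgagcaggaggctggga
Hemgn (chr4:46404184-46404333, minus strand): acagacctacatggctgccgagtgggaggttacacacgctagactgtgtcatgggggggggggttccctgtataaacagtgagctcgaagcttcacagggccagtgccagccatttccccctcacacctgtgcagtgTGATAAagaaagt
Acp5 (chr9:22135747-22135896, minus strand): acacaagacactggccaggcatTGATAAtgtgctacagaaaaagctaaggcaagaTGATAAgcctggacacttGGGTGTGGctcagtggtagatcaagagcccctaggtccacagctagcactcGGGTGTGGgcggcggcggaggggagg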

How the data were processed

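The authors prepared 1 cDNA library with 10x 3′ chemistry (v2) and 1 antibody library from the same cells, mapped reads to mm10 with Cell Ranger and counted antibody tags with CITE-seq-Count, and the deposited values are raw UMI counts per gene or antibody and cell, before the authors' doublet and quality filters. Cell Ranger and Seurat are named in the submitters' processing notes. The annotation version is not given in the sources used here.

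Cells were selected by the limits stated with the results, in Python 3.11.15 with pandas 2.3.3 and numpy 2.4.6, exact intervals came from scipy 1.17.1, and Scrublet was run within scanpy 1.11.5 with all calls kept. UMIs were summed per set of cells. The hepatocyte-marker-rich cells had at least 5% of their UMIs in hepatocyte markers, and the CD11b set was the 200 cells with the most CD11b antibody. Named genes were those of the gene lists and, per comparison, the 10 highest and 10 lowest by log2 ratio of CPM + 10, globins left out. A few of these genes are not reported here. Members and lists were chosen with earlier results of these data known. The counting was tested on simulated data, where of 194 changed genes tested against the other S1 cells 194 had the right direction and 169 passed the fold, and against S2 33 of 5827 unchanged genes (0.566%) passed it. Alternatives changed the gate limits, the α-globin limit, doublets, depth, denominator, pseudocount, UMI minimum and background. The closing part gives their effect. Positions and upstream sequences are from RefSeq on GRCm38.p6.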

Additional observations from a re-analysis of the deposited data

How the results depend on the processing

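All of these values rest on 1 library, so no spread between embryos is known, and the depth limits rare transcripts such as *Kit*. No paired analysis was possible because there is 1 library of each kind and no replicate number. The cause of the changes below was not tested. Counts are given as genes higher and lower in the members, and β-globin as the ratio of CPM against the other S1 cells. Main counts were 180 and 853 of 5454 tested genes against the other S1 cells. They were 22 and 54 of 6017 against S2 and 336 and 1701 of 7003 against S0-medium. Where the number of tested genes moved far from these, it is given.

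With an α-globin limit of 0.5% the share of the gate was 53.2%, β-globin 3.95, and the counts 110 and 347 against the other S1 cells, 98 and 104 against S2, and 801 lower against S0-medium, and log2 ratios against S2 turned to 0.40 for *Prelid2* and 0.18 for *Slc25a1*. With a limit of 2% the share was 12.3%, β-globin 7.39, and the counts 299 and 1791, 104 and 483, and 2781 lower, and log2 ratios against S2 turned to 0.44 for *Cdkn2d*, 0.17 for *Hba-a2*, 0.14 for *Hbb-bs* and 0.17 for *Hbb-bt*.

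With a CD71 limit of 1000 counts the share was 32.5% and β-globin 4.40. In that setting 568 of 4387 genes were lower against the other S1 cells and 36 of 5772 higher against S2. With a Ter119 limit of 12 counts 24 members remained, the share was 9.41%, the cKit ratio 0.109 and β-globin 11.6. Against the other S1 cells 1349 of 3578 genes were lower. Counts were 421 and 1078 of 5810 against S2 and 539 and 2760 of 6454 against S0-medium. There the log2 ratio of *Sptb* against the other S1 cells turned to −0.45, and against S2 those of *Ahcyl2* (−0.52), *Alas2* (0.15), *Cdkn2d* (0.37), *Ercc5* (−0.063), *Fn3k* (0.098), *Hba-a2* (0.31), *Hbb-bh1* (0.42), *Hbb-bs* (0.26), *Hbb-bt* (0.23) and *Ypel3* (0.22) turned. With a lineage limit of 50, β-globin was 5.35 and 37 of 5425 genes were higher against S2.

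Thinned to 3000 UMIs, 477 of 2614 genes were lower against the other S1 cells and β-globin was 5.74. Against S2, 103 and 89 of 3827 genes were higher and lower. With non-globin UMIs as the denominator β-globin was 5.38 and 86 genes were lower against S2. In UMIs per cell, counts were 24 and 4108 against the other S1 cells, 8 higher against S2 (77 lower, 9.41% of calls higher), and 83 and 4227 against S0-medium, with β-globin 2.93. Log2 ratios against the other S1 cells then turned to −0.063 for *Acp5*, −0.10 for *Alad*, −0.12 for *Bnip3l*, −0.10 for *Cpox*, −0.18 for *Fth1*, −0.13 for *Ftl1*, −0.053 for *Gpx1*, −0.0088 for *Hist1h1c*, −0.016 for *Kel*, −0.12 for *Prdx2*, −0.0040 for *Slc25a39*, −0.086 for *Sptb*, −0.033 for *Tfrc* and −0.062 for *Uros*.

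With the mean over cells of CPM β-globin was 5.79 and counts against S2 were 121 and 90. With at least 300 UMIs counts were 115 and 425 of 2968 against the other S1 cells and 8 and 28 of 3613 against S2. With a pseudocount of 1 CPM the counts were 150 and 221 against S2. With the hepatocyte-marker-rich level subtracted they were 398 and 1461, 545 and 152 against S2, and 637 higher against S0-medium, with β-globin 20.4. Among alternatives added after seeing the data, cells of 4000 to 8000 UMIs gave 108 and 159 of 1277 genes. Their cKit ratio was 0.381 and β-globin 6.20, and against S2 they gave 207 and 123 of 3569. Log2 ratios turned to 0.28 (*Alb*) and −0.10 (*Sox6*) against the other S1 cells and 0.18 (*Slc25a1*) against S2. S2 cells at or above 1% α-globin gave 64 higher, and keeping the 152 members with the least α-globin 40 and 86. The counts moved less without doublet calls (181 and 848, 23 and 51, 335 and 1693) and with *Hbb-y*-high cells kept (181 and 867, 24 and 54, 331 and 1718). The same held with at least 30 UMIs (218 and 1109 of 7871, 29 and 62 of 8198, 379 and 1785 of 8875).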
